A study of Mus musculus with 2 samples.

Results

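Senescence and p53 barrier genes were followed across the cell states of reprogramming cultures, as 9 genes chosen by name: Cdkn2a, Cdkn2b, Cdkn1a, Cdkn1b, Trp53, Mdm2, Ccng1, Phlda3 and Rb1. All 9 were found among the 17408 genes measured. The cells were mouse embryonic fibroblasts (MEFs) at day 16 of reprogramming towards induced pluripotent stem cells (iPSCs), unsorted. All came from STEMCCA mice, in which doxycycline switches on one transgene that encodes Pou5f1, Sox2, Klf4 and Myc together. They were grown in embryonic stem cell medium with serum, LIF and 50 µg/ml ascorbic acid, and profiled by droplet 3' single-cell RNA-seq, in which each captured RNA molecule is counted by its unique molecular identifier (UMI). There were 2 libraries in 1 group and no untreated or earlier sample, so the comparisons are between cell states inside each library. The study names 2 transgenic STEMCCA systems for these cultures and the labels tie neither library to one, so a difference between libraries cannot be told apart from one between systems.

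These genes act where a dividing cell stops. Cdkn2a encodes, from alternative first exons, p16Ink4a, an inhibitor of the kinases Cdk4 and Cdk6, and p19Arf, which holds Mdm2 away from p53. Its neighbour Cdkn2b encodes p15Ink4b, another inhibitor of Cdk4 and Cdk6. Trp53 encodes the transcription factor p53, and Mdm2 is both the ligase that marks p53 for destruction and a p53 target. Cdkn1a (p21), Ccng1 (cyclin G1) and Phlda3, an inhibitor of Akt signalling, are direct p53 targets. Cdkn1b (p27) is an inhibitor of Cdk2 complexes, and Rb1 encodes the retinoblastoma protein, which holds back E2F target genes until cyclin-dependent kinases phosphorylate it. In fibroblasts these pathways impose senescence or arrest and are known barriers to reprogramming, while pluripotent stem cells keep the Ink4/Arf locus silent.

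Cdkn2a lay on chromosome 4 (GRCm38, chr4:89274471-89294653, minus strand), next to Cdkn2b (chr4:89306299-89311039, minus strand). In the annotation the transcript with the Arf first exon (chr4:89294334-89294653) and that with the Ink4a first exon (chr4:89281986-89282192) shared exon 2 (chr4:89276645-89276985) and most of the last exon. Counts of 3' ends therefore cannot tell p16Ink4a from p19Arf, and Cdkn2a stands for both. The other members were Cdkn1a (chr17:29090976-29100727), Cdkn1b (chr6:134920401-134925513), Trp53 (chr11:69580359-69591873) and Phlda3 (chr1:135766119-135769136) on the plus strand. Mdm2 (chr10:117688875-117710758), Ccng1 (chr11:40748552-40755311) and Rb1 (chr14:73183673-73325822) were on the minus strand.

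Mdm2, Phlda3, Cdkn1a and Ccng1 are p53 targets whose levels differed with Cdkn2a below. Promoters of Cdkn1a and Ccng1 are shown, as the only ones among the members' windows with a full match to the p53 response element. They are the 250 bases before the start in RefSeq (GRCm38.p6), at chr17:29090729-29090978 on the plus strand and chr11:40755287-40755536 on the minus strand, with capitals marking matches to the consensus of the p53 response element.
Cdkn1a: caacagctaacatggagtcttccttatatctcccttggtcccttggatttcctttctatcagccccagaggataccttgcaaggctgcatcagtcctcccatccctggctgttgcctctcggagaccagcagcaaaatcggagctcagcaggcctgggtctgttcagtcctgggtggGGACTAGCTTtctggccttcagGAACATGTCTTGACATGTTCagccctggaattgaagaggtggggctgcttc
Ccng1: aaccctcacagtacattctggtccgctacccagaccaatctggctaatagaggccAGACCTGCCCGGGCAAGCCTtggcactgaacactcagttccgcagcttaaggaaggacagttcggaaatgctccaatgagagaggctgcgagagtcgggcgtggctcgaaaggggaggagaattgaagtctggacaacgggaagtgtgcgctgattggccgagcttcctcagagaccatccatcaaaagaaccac
A single consensus arm, searched on both strands, was in 7.13% of 32851 promoter windows of this length, and a full element of adjacent arms, with 1 arm perfect and at most 2 mismatches in the other, was in 0.353%. The Cdkn1a window shown held a full element from 51 to 32 bases before its start with 1 mismatch, and a single arm 73 bases before it. The window of the other Cdkn1a start in RefSeq (chr17:29093519-29093768) had no match. The Ccng1 window held a full element from 195 to 176 bases before the start, also with 1 mismatch. Mdm2 and Trp53 each had 1 single arm, at 186 and 75 bases before their starts. Both windows of Cdkn2a and those of Cdkn2b, Cdkn1b and Phlda3 had no match, and no window was available for Rb1. A match describes letters in a window and says nothing of binding in these cells.

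Replicate 1 held 3109 cells with a median of 15625 UMIs, replicate 2 held 3914 cells with a median of 14292 UMIs, and 12 barcodes occurred in both. Clustering without the members and without the pathway lists used here gave 15 clusters, of which 12 had at least 30 cells in each library. A pluripotent-like cluster (147 and 391 cells in replicates 1 and 2) raised 11 of 12 pluripotency markers. A fibroblast-like cluster led by Spp1 (245 and 165 cells) raised 11 of 13 fibroblast markers, and 2 clusters led by Rarres2 and by Mylk were myofibroblast-like, with 4 and 8 of 8 markers. The other 8 met no marker rule and are called by a leading gene: Mki67 and Tk1 (both led by cell-cycle genes), Pcp4, Tac2, Krt19, Mmp11, Cytl1 and Isg15. Genes that vary with the members took part in the clustering, so tests between clusters are not independent of how cells were grouped.

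Levels are the mean over cells of UMIs per 10000 UMIs of a cell, with the SD over the 2 libraries, and are compared between clusters and not between genes. Neighbours in the order of levels are said to be apart where the ranges of their libraries do not overlap.

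**Figure D1:**
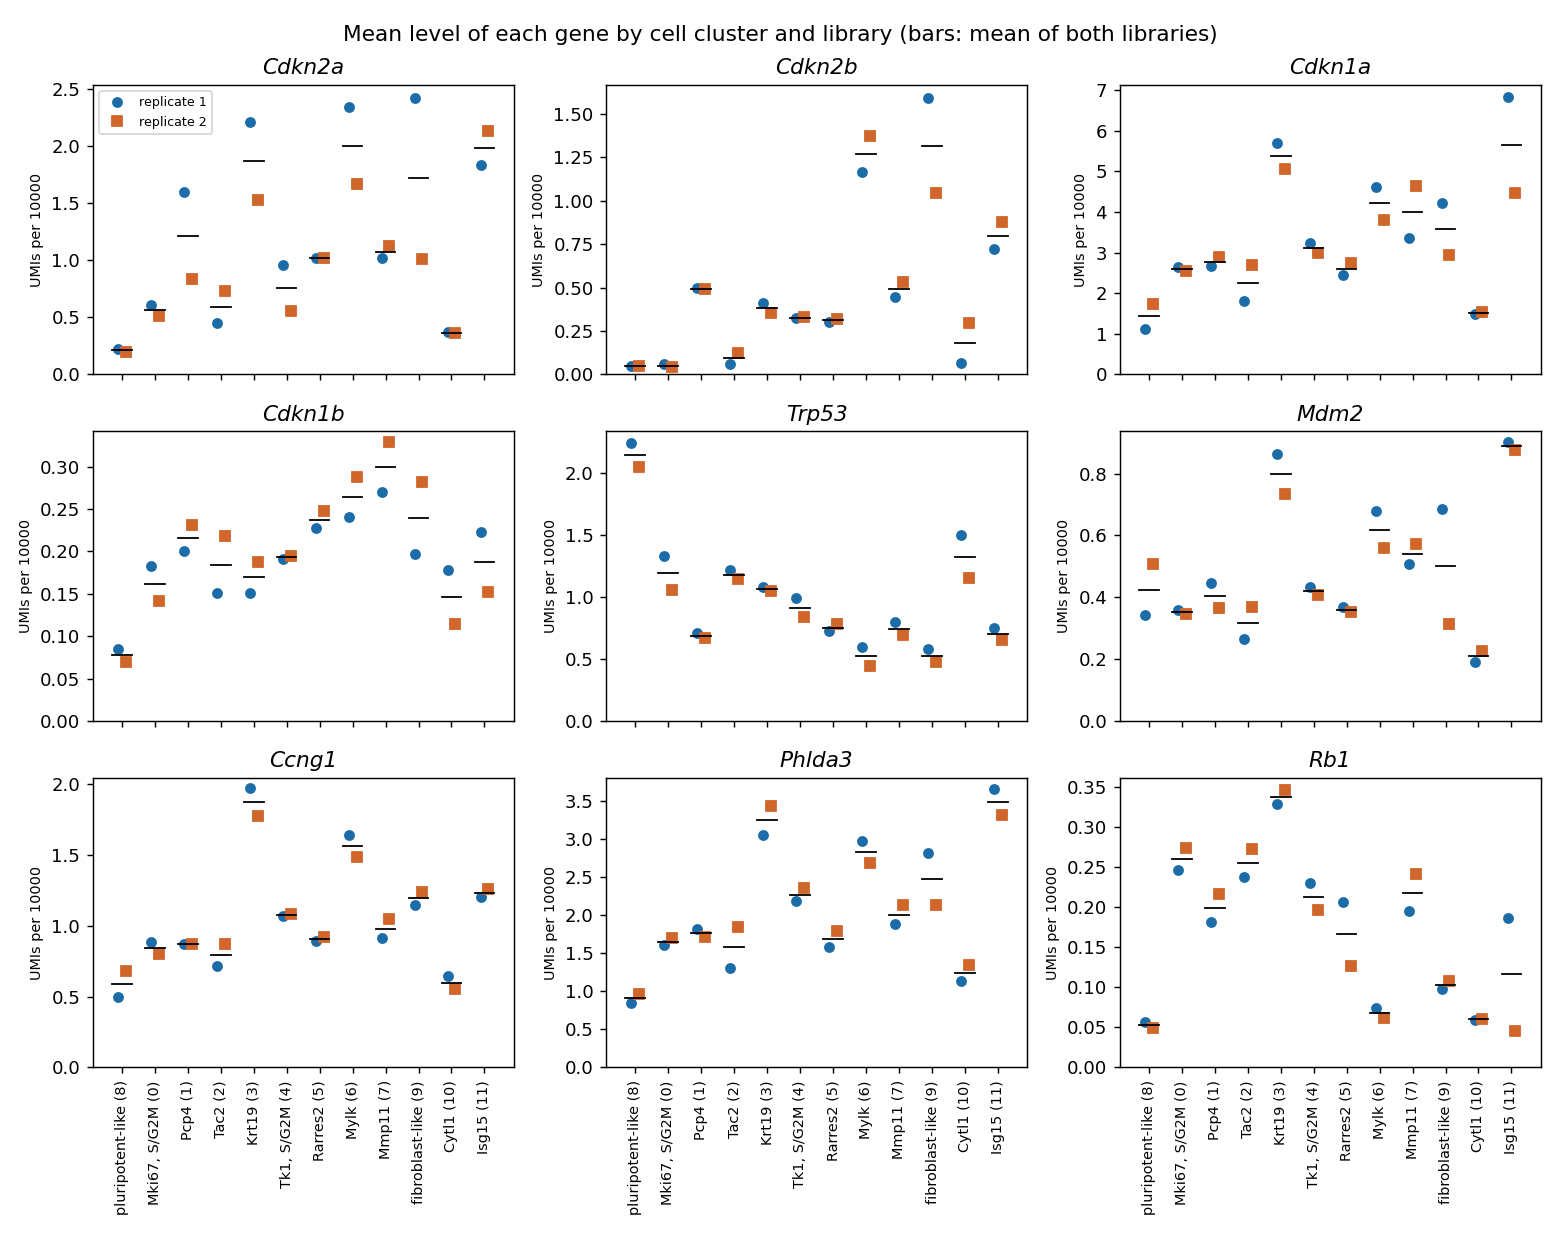
Mean level of each of the 9 genes (y axis, UMIs per 10000) in the 12 clusters (x axis, leading gene or class with the cluster number), with a circle for replicate 1, a square for replicate 2 and a bar for their mean. Trp53 is highest in the pluripotent-like cluster, where Cdkn2a, Cdkn2b, Cdkn1a, Cdkn1b, Ccng1, Phlda3 and Rb1 have their lowest mean.

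The Ink4 genes were high in the Mylk, fibroblast-like and Isg15 clusters and low in the pluripotent-like cluster. Cdkn2a was at 2.34 and 1.66 in the Mylk cluster (mean 2.00 ± 0.479), 1.83 and 2.13 in the Isg15 cluster, 2.21 and 1.52 in the Krt19 cluster and 2.42 and 1.01 in the fibroblast-like cluster. It was at 0.371 and 0.358 in the Cytl1 cluster and at 0.223 and 0.201 in the pluripotent-like cluster (mean 0.212 ± 0.0156), a ratio of 9.45 between the highest and the lowest mean. Of 11 neighbouring pairs of clusters 3 were apart, and Cdkn2a was higher in replicate 1 in 9 of 12 clusters. The pluripotent-like and Cytl1 clusters lay apart from each other and from the clusters above them.

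Cdkn2b had the widest spread between clusters, 27.5-fold. It was at 1.59 and 1.04 in the fibroblast-like cluster and at 1.17 and 1.37 in the Mylk cluster, which were not apart, and at 0.719 and 0.875 in the Isg15 cluster. At the other end were the pluripotent-like cluster (0.0494 and 0.0462) and the Mki67 cluster (0.0603 and 0.0415), whose ranges overlapped. The pluripotent-like levels rest on 21 and 58 UMIs, so the size of the spread depends on few counts at its lower end. The 2 clusters led by cell-cycle genes differed from each other, as the Tk1 cluster had 0.323 and 0.329. Cdkn2b was apart in 7 of 11 neighbouring pairs.

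Of the Cip/Kip inhibitors, Cdkn1a had its highest means in the Isg15 cluster (6.85 and 4.48) and the Krt19 cluster (5.70 and 5.06), which were not apart. It was lowest in the pluripotent-like cluster (1.13 and 1.74) and the Cytl1 cluster (1.48 and 1.55), which were not apart. These pluripotent-like levels rest on 460 and 1764 UMIs, and free RNA from other cells, which can add to such counts, was not estimated. Cdkn1b was low throughout, from 0.270 and 0.329 in the Mmp11 cluster down to 0.0853 and 0.0701 in the pluripotent-like cluster, with 2 of 11 neighbouring pairs apart.

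Trp53 ran against the Ink4 genes at both ends of its order, but not throughout. It was at 2.24 and 2.05 in the pluripotent-like cluster, apart from the Cytl1 cluster that followed with 1.5 and 1.15, and then came the Mki67 cluster (1.33 and 1.06), the Tac2 cluster (1.21 and 1.14) and the Krt19 cluster (1.08 and 1.05). The lowest were the fibroblast-like cluster (0.578 and 0.473) and the Mylk cluster (0.597 and 0.447), where the Ink4 genes were high. Replicate 1 had more Trp53 in 11 of 12 clusters, by a median of 0.17 on the log2 scale.

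The p53 targets followed Cdkn1a in the Krt19, Mylk and Isg15 clusters. Mdm2 was at 0.901 and 0.876 in the Isg15 cluster and 0.862 and 0.733 in the Krt19 cluster, and lowest not in the pluripotent-like cluster (0.342 and 0.506) but in the Cytl1 cluster (0.192 and 0.227). Ccng1 ranged from 1.97 and 1.78 in the Krt19 cluster to 0.495 and 0.679 in the pluripotent-like cluster, and Phlda3 from 3.66 and 3.31 in the Isg15 cluster to 0.849 and 0.966 in the pluripotent-like cluster. Rb1 stood apart from these. It was at 0.328 and 0.346 in the Krt19 cluster and 0.246 and 0.274 in the Mki67 cluster, and among its lowest levels were the Mylk cluster (0.0737 and 0.0618), where Cdkn2a was high, and the pluripotent-like cluster (0.0573 and 0.0489).

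Across the 12 clusters the log2 levels of Cdkn1a and Phlda3 correlated at r = 0.99 in replicate 1 and 0.89 in replicate 2, those of Cdkn2a and Cdkn1a at 0.91 and 0.88, and those of Cdkn2a and Cdkn2b at 0.92 and 0.76. Cdkn2a and Trp53 correlated at -0.87 and -0.75. Leaving out the pluripotent-like cluster, Cdkn2a and Cdkn1a were still at 0.86 and 0.86, and Cdkn2a and Trp53 at -0.81 and -0.58. These are descriptions over clusters that share a library and its depth, and carry no test. Rb1 correlated weakly with Cdkn2a, at 0.24 and 0.09.

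Outside the member list, the tested genes whose pattern over the 12 clusters was most like that of a member were picked by the lower r of the libraries. For Cdkn2a they were Cd81 (0.91 and 0.92), Hebp2 (0.90 and 0.92) and Dynlt3 (0.89 and 0.90), and for Cdkn2b they were Nfe2l1 (0.96 and 0.94), S100a13 (0.95 and 0.94) and Ubl5 (0.92 and 0.95). Cdkn1a was most like Cpt1c (0.95 and 0.88), B4galnt1 (0.87 and 0.87) and Esd (0.87 and 0.84). Genes most like Trp53 included Apex1 (0.96 and 0.98), a base excision endonuclease, and Fubp1 (0.96 and 0.97). Mdm2 had lower values, with Arap2 (0.78 and 0.76), Lrrc28 (0.81 and 0.75) and Ociad1 (0.74 and 0.76).

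The first comparison asked how the barrier genes differed between pluripotent-like cells and the other cells of the same culture. Of the 9 members 7 were lower in pluripotent-like cells, Trp53 was higher, and Mdm2 did not pass the test. Differences are log2 of the level plus 0.1, pluripotent-like minus the mean of the 11 other clusters, and were called at an adjusted p below 0.05 by limma over 7131 genes. So many genes differed between these states that 77.2% of all tested genes were called, 32.8% higher and 44.4% lower, and calls on 8 of 9 members are near that background. Cdkn2b, Cdkn1b and Rb1 were under 0.1 in pluripotent-like cells and passed the filter through the other cells. The same was true of Fas, Hipk2, Cdkn2c, Ets1 and Ccl7, which are named below as lower.

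Cdkn2a was at 0.223 and 0.201 in pluripotent-like cells and 1.35 and 1.04 in the mean of the other clusters (log2 difference -1.86, SE 0.21, limma adjusted p = 9.4e-08). Cdkn2b was at 0.0494 and 0.0462 against 0.513 and 0.526 (-1.72, SE 0.19, limma adjusted p = 8.4e-08). For both Ink4 genes the libraries of the pluripotent-like cells lay below the mean of the other clusters. In Cdkn2b they overlapped with the Mki67 cluster (0.0603 and 0.0415).

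Cdkn1a was at 1.13 and 1.74 against 3.55 and 3.30 (-1.13, SE 0.16, limma adjusted p = 2.4e-06), with a larger difference in replicate 1 (-1.44) than in replicate 2 (-0.82). The targets Phlda3 (0.849 and 0.966 against 2.19 and 2.22) and Ccng1 (0.495 and 0.679 against 1.09 and 1.08) had log2 differences of -1.13 and -0.74. Mdm2 was at 0.342 and 0.506 against 0.518 and 0.465, and was lower in replicate 1 and higher in replicate 2 (-0.11, SE 0.15, limma adjusted p = 0.54). Its ranges overlapped, unlike those of the other 8 members.

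Trp53 was at 2.24 and 2.05 in pluripotent-like cells against 0.933 and 0.813 in the others (1.26, SE 0.08, limma adjusted p = 1.9e-11), the same in both libraries (1.24 and 1.29). RNA of p53 was thus high in the cells in which its targets Cdkn1a, Phlda3 and Ccng1 were low. Cdkn1b (0.0853 and 0.0701 against 0.201 and 0.217) and Rb1 (0.0573 and 0.0489 against 0.186 and 0.177) had log2 differences of -0.78 and -0.80.

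**Figure D2:**
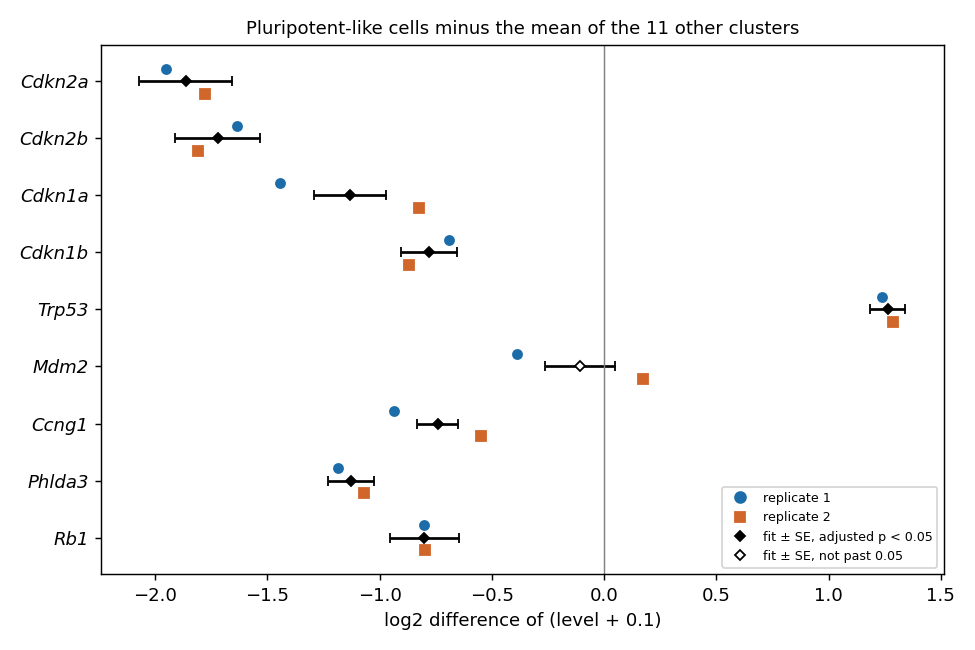
Log2 difference of each member between pluripotent-like cells and the mean of the 11 other clusters (x axis), with a circle for replicate 1, a square for replicate 2 and a diamond with its SE for the fit, filled where the adjusted p was below 0.05. Trp53 lies at 1.26, Mdm2 straddles 0, and the other 7 lie between -0.74 and -1.86.

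The wider p53 program did not move as one. Of 29 other p53 target genes 16 passed the filter of a mean level of 0.1 over all cells, and of these 6 were higher, 4 lower and 6 not called, with a median log2 difference of 0.01 against -0.13 over all tested genes. Gadd45a, a growth arrest and repair gene (1.16), Pml (0.73) and the death effector Bax (0.67) were higher. The death receptor Fas (-1.40), the antiproliferative gene Btg2 (-1.10) and Zmat3 (-0.55) were lower. Of 11 tested p53 regulators of 14 listed, 5 were higher, with Usp7, a deubiquitinase of Mdm2 and p53 (1.31), Npm1 (1.06) and the Arf-binding ligase Huwe1 (0.68) leading. The 3 lower ones were Hipk2 (-0.62), a p53 kinase, and the ligases Rfwd2 (-0.42) and Rchy1 (-0.30), the last not called when profiles were centred on their median (-0.17, limma adjusted p = 0.10).

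The RB pathway list and the list of Ink4/Arf locus regulators both held genes called in each direction. In the RB pathway list 12 of 22 were tested, 8 were higher and 3 lower, with a median of 0.73. Mybl2, an E2F target and cell-cycle transcription factor (4.11), Ccne1, cyclin E1 (1.60), and Ccnd3, cyclin D3 (1.31), were higher, and the cyclins Ccnd2 (-3.24) and Ccnd1 (-1.40) and their kinase Cdk6 (-0.86) were lower. Other inhibitors of cyclin-dependent kinases were lower or not called, with Cdkn1c (p57) at -1.90 and Cdkn2c (p18) at -1.28. Of 13 tested locus regulators of 21 listed, 6 were higher, led by the Polycomb genes Jarid2 (2.55), Ezh2 (2.23) and Eed (1.97), and 6 were lower, led by Id1 (-1.40), Ets1 (-1.13), an activator of p16Ink4a, and Zbtb7a (-0.89), a repressor of Arf.

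Genes linked to the senescent state were mostly lower. Of 22 listed 20 were measured and 13 tested, with 9 lower and 4 higher and a median of -1.23. The secreted factors Igfbp7 (-2.82), Igfbp3 (-2.75) and Ccl7 (-2.54) were lower. Lmnb1, the lamin that senescent cells lose (2.22), and Hmgb1 (0.71) were higher. Vegfa (0.30) was higher too, a call lost at clustering resolution 0.5 (0.18, limma adjusted p = 0.12) and without the Mki67 and Tk1 clusters (0.27, limma adjusted p = 0.058).

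Other measures moved with this contrast. In pluripotent-like cells all 10 tested fibroblast markers and all 7 tested myofibroblast markers were lower (medians -2.49 and -2.39), 33 of 34 S phase genes and 43 of 46 G2 and M phase genes were higher, and cells were deeper (medians of 28691 and 26097 UMIs). The part of cell identity, cycling and depth in the members' differences was not tested. Without the Mki67 and Tk1 clusters, an alternative chosen after seeing the data, the same 8 members were called, with Cdkn2a at -2.00 and Trp53 at 1.33.

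A second comparison asked which barrier genes went together inside a cell state. Cells outside the pluripotent-like cluster were thinned to 3000 UMIs each and divided into those with and those without a Cdkn2a UMI, within each of 8 clusters with at least 30 cells of each kind in both libraries. At that depth 25.6% of the 2962 non-pluripotent cells in replicate 1 and 19.5% of the 3523 in replicate 2 had a Cdkn2a UMI (median full depth 15213.5 and 13651), against 7.48% and 4.86% of pluripotent-like cells (28691 and 26097). Pluripotent cells are known to keep the locus silent, but whether the UMIs in pluripotent-like cells came from free RNA was not tested. Free RNA was not estimated, and the share in these deeper cells is not taken as a background for the others. A cell with Cdkn2a RNA can go without a UMI at this depth and a cell without it can hold a free UMI, so both kinds can hold cells of the other. Cdkn2a itself was used to divide the cells and is not reported.

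Cells with Cdkn2a had more of Cdkn2b, Cdkn1a, Mdm2, Ccng1 and Phlda3, and no member was called lower. These were 5 of the 8 other members, where 0.813% of 7130 tested genes were called higher and 0.323% lower. Cdkn2b, the neighbour of Cdkn2a, was at 0.999 and 0.932 in cells with and 0.449 and 0.475 in cells without it (log2 difference 0.92, SE 0.10, limma adjusted p = 3.0e-16). Cdkn1a was at 5.54 and 5.21 against 2.62 and 3.0 (0.91, SE 0.06, limma adjusted p = 5.8e-46). The p-values of this comparison rest on a common trend of spread and are too small to be taken at face value, as set out below. The libraries of cells with and without Cdkn2a did not overlap in either gene.

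Mdm2 was at 0.740 and 0.682 against 0.375 and 0.363 (0.79, SE 0.11, limma adjusted p = 7.9e-10). Ccng1 was at 1.54 and 1.58 against 0.997 and 1.03 (0.57), and Phlda3 at 3.14 and 2.82 against 1.91 and 2.07 (0.56). All of these are p53 targets, and each was higher in both libraries.

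Trp53 was at 0.789 and 0.786 in cells with Cdkn2a and at 0.866 and 0.727 in cells without it (-0.01, SE 0.10, limma adjusted p = 0.99), lower in one library and higher in the other. Cdkn1b (0.221 and 0.262 against 0.209 and 0.222, 0.11) and Rb1 (0.187 and 0.145 against 0.169 and 0.205, -0.11) did not pass the test either. RNA of the p53 targets thus differed with Cdkn2a where a difference in Trp53 RNA was not detectable.

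**Figure D3:**
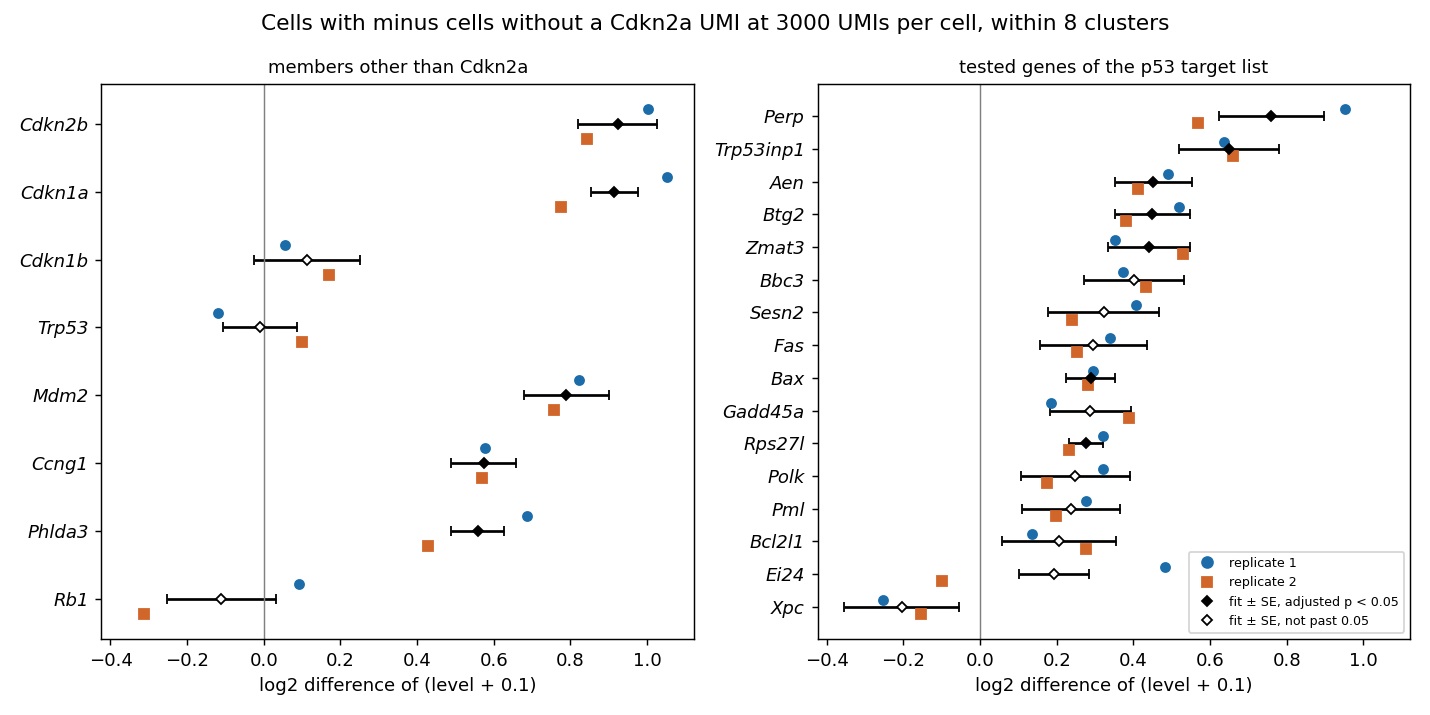
Log2 difference between cells with and without a Cdkn2a UMI within 8 clusters (x axis), for the 8 other members (left) and the 16 tested genes of the p53 target list (right). Circles and squares are replicates 1 and 2, and diamonds with an SE are the fit, filled where the adjusted p was below 0.05, as in 5 members and 7 targets.

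The same held cluster by cluster. With 8 clusters in 2 libraries there were 16 pairs of profiles, and Cdkn2b, Cdkn1a, Ccng1 and Phlda3 were higher with Cdkn2a in 16 of 16, Mdm2 in 15, Cdkn1b in 11, Trp53 in 9 and Rb1 in 6. Of all tested genes, 0.126% were higher in all 16. These 9 genes included, beside the 4 members, Commd3, Cox6b2, Ephx1 and Gas6, which are named after their values were seen.
Cdkn1a was at 4.23 against 2.21 in replicate 1 of the Mki67 cluster and at 6.88 against 4.40 in that of the Krt19 cluster, so the difference was present in cycling and in other cells. The exception for Mdm2 was the Rarres2 cluster of replicate 1, with 0.246 against 0.331. Differences in Cdkn2b ran from 0.10 in replicate 1 of the Mki67 cluster, where the gene was near 0, to 1.99 in that of the Pcp4 cluster.

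**Figure D4:**
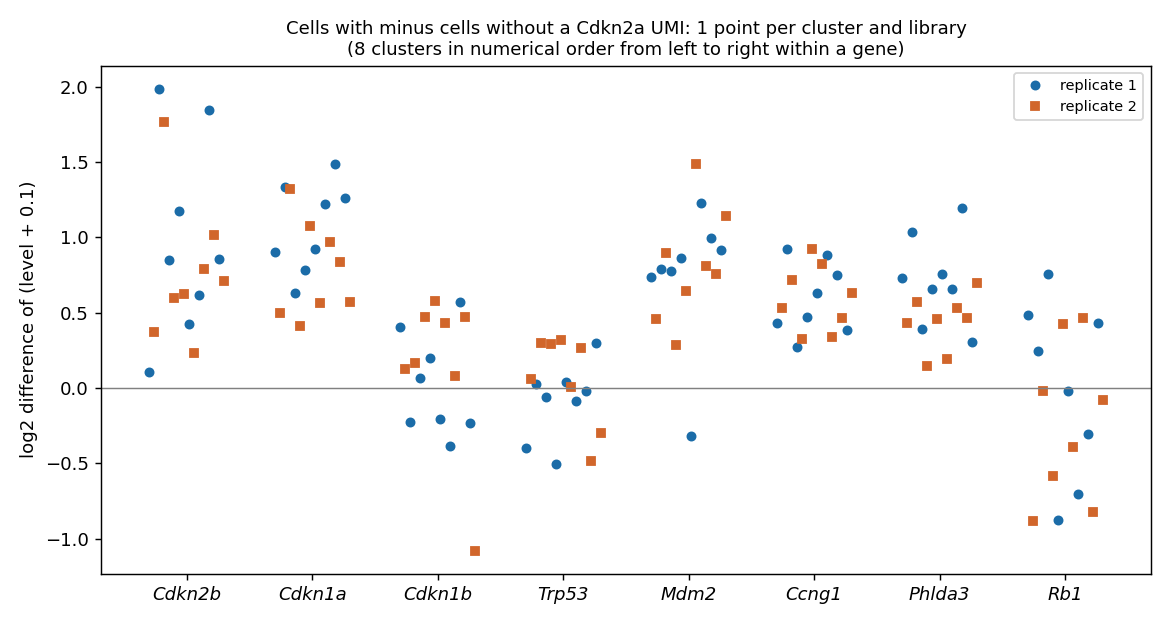
Log2 difference between cells with and without a Cdkn2a UMI (y axis) for each of the 8 other members (x axis), with 1 point per cluster and library, 16 per gene. Points of Cdkn2b, Cdkn1a, Ccng1 and Phlda3 all lie above 0, as do 15 of 16 of Mdm2, whereas those of Trp53, Cdkn1b and Rb1 lie on both sides.

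Other p53 target genes went the same way. Of 16 tested, 7 were higher with Cdkn2a and 0 lower, with a median of 0.29 against 0.02 over all tested genes. They were Perp, an apoptosis and junction gene (0.76), Trp53inp1 (0.65), the nuclease gene Aen (0.45), Btg2 (0.45), Zmat3 (0.44), Bax (0.29) and Rps27l (0.28). Perp is also on the keratinocyte marker list. By limma 0 of 11 tested p53 regulators (0 at an unadjusted p below 0.05), 0 of 13 Ink4/Arf locus regulators (1) and 0 of 3 other inhibitors (1) were called, and Ccnd2 (0.30) was the one gene of 12 in the RB pathway list. Of 13 senescence genes the protease inhibitor Serpine2 (0.76) and Igfbp7 (0.27) were higher.

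Cell-cycle genes did not differ to the same degree, with 0 of 34 S phase genes called by limma (1 higher and 6 lower at an unadjusted p below 0.05) and 1 of 46 G2 and M phase genes called, and 2 of 10 fibroblast markers were higher. Median full depths of cells with and without Cdkn2a were close in most clusters, 19299.5 and 19836 UMIs in replicate 1 of the Mki67 cluster for example, but were 15633 and 18100.5 in replicate 2 of the Krt19 cluster and 9628 and 11480 in that of the fibroblast-like cluster. The p-values here are too small to be taken at face value, since 4 profiles leave 1 degree of freedom per gene and limma estimated 1 common trend of spread (7131 degrees of freedom in all). Without a library term only Cdkn1a was called (limma adjusted p = 0.045), and with no filter on low values limma called 0 of 17407 genes, with the 5 members at adjusted p = 0.75 and 1127 genes at an unadjusted p below 0.05.

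The last comparison asked whether the inhibitors differed with cycling. In each library, cells were ranked by the share of their UMIs that came from S and G2 and M phase genes, and the highest and lowest tertiles were compared, with medians of 0.855% and 0.754% against 0.0865% and 0.0819% outside the pluripotent-like cluster. Cdkn2b and Cdkn2a were lower and Trp53 was higher in cycling cells. With tertiles taken inside clusters, where the cycling contrast was narrower, none of these passed the test. Of all tested genes 20.7% were called higher and 12.9% lower.

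Cdkn2b was at 0.200 and 0.184 in the highest tertile and 0.627 and 0.573 in the lowest (-1.26, SE 0.12, limma adjusted p = 4.0e-05), and Cdkn2a at 0.822 and 0.591 against 1.47 and 0.991 (-0.71, SE 0.13, limma adjusted p = 0.0021). Cdkn1b was at 0.174 and 0.160 against 0.226 and 0.262 (-0.36, SE 0.12, limma adjusted p = 0.048), a call lost under 7 alternatives. Trp53 was at 1.2 and 0.989 against 0.723 and 0.688 (0.56, SE 0.09, limma adjusted p = 0.0016). Cdkn1a (-0.27), Mdm2 (-0.06), Ccng1 (-0.13), Phlda3 (0.01) and Rb1 (0.18) were not called.

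The tertiles were made of different clusters. The Mki67 and Tk1 clusters supplied 73.8% and 71.6% of the highest tertile and 0% of the lowest. Cells of the highest tertile were deeper, with medians of 19908 and 18700 UMIs against 12825 and 11481. All 10 tested fibroblast markers (median -0.86) and 3 of 7 myofibroblast markers were lower in the highest tertile. The part of cell identity and depth in the members' differences over all non-pluripotent cells was not tested further. With tertiles taken inside each of 9 clusters, limma called 136 genes and 0 of 9 members, 2 of them at an unadjusted p below 0.05. Cdkn2a was then at 0.14, Cdkn2b at 0.02, Cdkn1b at -0.02 and Trp53 at 0.24 (limma adjusted p = 0.78, 0.98, 0.98 and 0.33). By limma 43 of 46 G2 and M phase genes were still higher, but only 4 of 34 S phase genes. Medians of these lists were 1.00 and 0.35, against 2.39 and 2.08 over all non-pluripotent cells. The cycling contrast was thus narrower inside clusters.

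**Figure D5:**
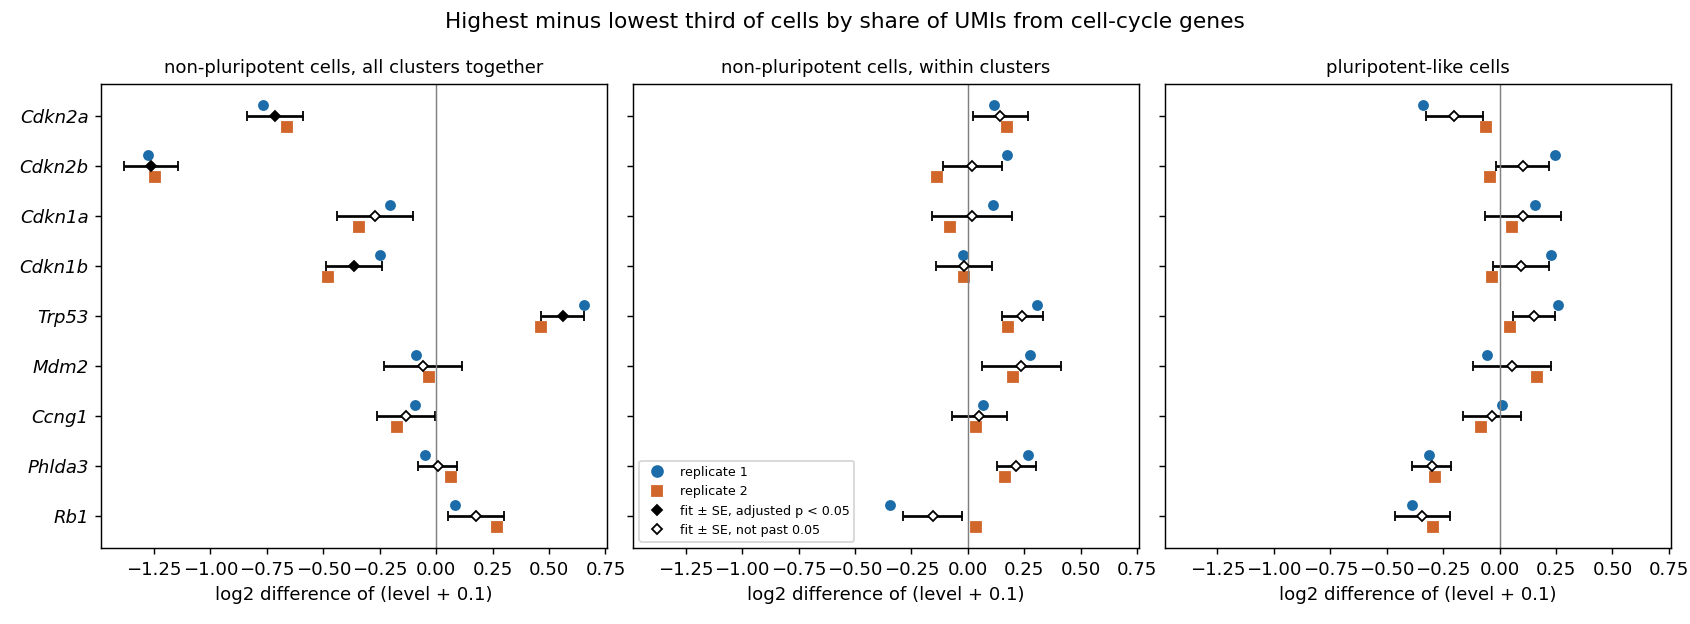
Log2 difference of each member between the highest and lowest tertile of cells by share of cell-cycle UMIs (x axis), for all non-pluripotent cells together (left), for tertiles inside clusters (middle) and for pluripotent-like cells (right). Circles and squares are replicates 1 and 2 and diamonds with an SE are the fit, filled where the adjusted p was below 0.05; Cdkn2a, Cdkn2b, Cdkn1b and Trp53 are filled on the left and no member is filled in the middle or on the right.

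Other genes of these pathways were called over all non-pluripotent cells, most of them not with tertiles inside clusters. Among p53 targets Rps27l (0.33) was higher and Gadd45a (-1.49), Btg2 (-0.89) and Trp53inp1 (-0.66) were lower, 4 of 16 tested. Among p53 regulators Atm (0.51) and Npm1 (0.22) were higher. The RB pathway had 6 of 12 higher and 0 lower, led by Mybl2 (1.78), E2f1 (1.73) and Ccne1 (1.15). The related inhibitors parted, with Cdkn2c (1.39) and Cdkn2d (1.17) higher and Cdkn1c (-1.37) lower. Ezh2 (2.03), Suz12 (0.86) and Eed (0.69) were higher and Kdm6b (-0.57), a demethylase that opposes them, was lower, 5 of 13 locus regulators in all. Of 13 senescence genes Lmnb1 (2.19) and Hmgb1 (1.53) were higher and 5 were lower, led by Mmp3 (-2.10), Igfbp4 (-1.44) and Igfbp7 (-1.24). Mybl2, Ccne1 and Lmnb1 were under 0.1 in the lowest tertile and Mmp3 in the highest. These genes passed the filter through the cells in which they were higher. Of the genes named here, Cdkn2c, Cdkn2d, Lmnb1 and Hmgb1 were still called with tertiles inside clusters and the others were not. Ccne1 was then at 0.23, Gadd45a at -0.22, Ezh2 at 0.51 and Mmp3 at -0.34 (limma adjusted p = 0.67, 0.60, 0.062 and 0.59).

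In pluripotent-like cells 0 of 9 members were called between tertiles, with 2.01% of all tested genes called by limma (1.47% higher and 0.533% lower), and 2 members were at an unadjusted p below 0.05. Their lowest tertile still had medians of 0.691% and 0.583% cell-cycle UMIs, above most other cells, so the contrast was narrower there. Cdkn2a was at 0.203 and 0.189 in the highest tertile and 0.284 and 0.201 in the lowest, and Cdkn1a at 1.16 and 1.81 against 1.03 and 1.74. Phlda3 (-0.30, limma adjusted p = 0.12) and Rb1 (-0.34, limma adjusted p = 0.19) had the same sign in both libraries without passing the test. Rb1 was under the filter and the pseudocount of 0.1 in either tertile, at 0.0381 and 0.0241 against 0.0808 and 0.0522. It was tested because of its level in the other cells, so nothing is read from its sign. From the other lists, Ezh2 (0.62) and Hmgb1 (0.45) were higher and Igfbp3 (-0.77) was lower, calls that none of the 3 genes kept with no filter, with no library term, after thinning or without the 5% deepest cells. Igfbp3 was under 0.1 in the highest tertile (0.0610 and 0.0695) and was much higher in cells outside the pluripotent-like cluster.

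The difference between these contrasts was tested for each gene, as pluripotent-like minus non-pluripotent. Cdkn2b was called (1.36, SE 0.17, limma adjusted p = 0.00077), as 1 of 9 members, where 3.55% of all tested genes were called higher and 8.57% lower. In pluripotent-like cells Cdkn2b was under both the filter and the pseudocount of 0.1 in either tertile, at 0.0757 and 0.0478 against 0.0480 and 0.0523. It was tested because of its level in the other cells, and on this scale the value mostly restates their contrast of -1.26, so nothing is read from it about pluripotent-like cells. With tertiles inside clusters the difference was 0.08 (limma adjusted p = 0.94). Cdkn2a (0.51, limma adjusted p = 0.095), Trp53 (-0.41, limma adjusted p = 0.079) and Rb1 (-0.52, limma adjusted p = 0.087) had the same sign in both libraries and were not called. Rb1 too was under 0.1 in both tertiles of pluripotent-like cells, so nothing is read from its value.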

How the data were processed

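Droplet 3' RNA-seq of 2 libraries (54145377 and 64654306 UMIs in all, 4753 to 60990 UMIs per cell) was analysed. Per the labels and the study's methods, the authors made counts with Cell Ranger (version 2.1.1, mm10), kept cells by detected genes and mitochondrial RNA, and deposited natural log values from Seurat, ln of 1 plus UMIs per 10000 UMIs of the cell. Of the values 100% were whole multiples of 1 UMI of their cell within 0.01, and the values were used on the linear scale per 10000. Whole UMIs served for depth and thinning only.

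Cells were clustered together (scanpy version 1.11.5, 2000 variable genes, 30 principal components, 15 neighbours, Leiden resolution 1 with leidenalg version 0.10.2). From clustering 705 genes were left out, namely the members and pathway lists (119 genes), X-linked and Y-linked genes, reprogramming factors and some pluripotency genes. A cluster took a class name where 3 or more of that class's markers, and no fewer than 50% of them, were raised 2-fold. The name was dropped where the leading genes held more markers of another class, or where a shallow cluster had none of its own among them. The cluster led by Trf and Saa3, with 4 of 7 primitive endoderm markers raised, thus stayed unnamed. No doublet caller was run; an alternative left out the 5% deepest cells.

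The mean level of a class in a library was 1 profile, with libraries as replicates and cells not. Profiles of different classes from the same library entered a fit as independent beyond the library term, so its p-values may be too small. limma (version 3.58.1, R version 4.3.3; lmFit, and eBayes with a trend) was run on log2(mean + 0.1) with a library term, as each library holds all classes, over the genes whose level averaged 0.1 or more across cells. Adjustment was by Benjamini-Hochberg across those genes. Log2 differences on this scale understate changes of low genes. An exact permutation of signs, two-sided, has p = 0.5 as its smallest value with 2 libraries, so single levels carry no test, and nothing in the labels says that the libraries came from separate animals. The fits were tested on simulated data.

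Members and lists were chosen with earlier results of these data known. Named were all members, of each list up to 3 genes with the largest called change in each direction in a comparison, and the 3 genes most like each of Cdkn2a, Cdkn2b, Cdkn1a, Trp53 and Mdm2. A few genes that this rule or a count would name are not reported here. Genes were placed with the GENCODE M21 annotation. Alternatives covered the pseudocount, the filter, centring, summed UMIs, the library term, each library alone, clustering and the definition of the cell classes.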

Additional observations from a re-analysis of the deposited data

Results flagged for a closer look

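For Cdkn2b the test of the difference in contrast between cycle-high and cycle-low cells, pluripotent-like minus the others, gave an interaction of 1.36 on the log2 scale (SE 0.17, limma adjusted p = 0.00077) and the same sign in both libraries (1.53 and 1.2). The contrast was 0.10 in pluripotent-like cells and -1.26 in the others. With tertiles taken inside clusters the interaction was 0.08 (limma adjusted p = 0.94). Cdkn2b was low in pluripotent-like cells (0.0757 and 0.0478 in the highest tertile, 0.0480 and 0.0523 in the lowest), under the filter and the pseudocount of 0.1. The gene passed the filter through the other cells and could hardly move on this scale in pluripotent-like cells, so the interaction mostly restates the contrast in the others and is not read as a difference between the cell states.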

How the results depend on the processing

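The 8 calls on members between pluripotent-like cells and other clusters held in every alternative that tested the gene. Of the log2 differences of members under all alternatives, 477 kept their direction and their side of the threshold, 18 lost the call, 2 gained it and 21 changed sign. Limits come from the 2 libraries, from low levels of Cdkn1b, Rb1 and Cdkn2b in several clusters, and from the 34 cells of the Isg15 cluster in replicate 1. The causes of the changes below were not tested, except that a stricter filter tests fewer genes. With each library alone there is a value and no test, and no called member changed sign. The alternative without the Mki67 and Tk1 clusters was chosen after seeing the data.

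For pluripotent-like cells, no filter on low values gave 9370 called genes, and a mean of at least 0.5 gave 1829 genes and 4 members lower. Centring each profile on its median moved the median of all genes from -0.13 to 0.01 and the share of calls that were higher from 42.5% to 50.2%, with Mdm2 at 0.0283.

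For cycling in non-pluripotent cells, a mean of at least 0.5 gave 1086 genes and 1 member lower, and centring moved the share of calls that were higher from 61.6% to 49.5%. Tertiles inside clusters gave 136 genes, 0 members higher and 0 lower, with Cdkn2a at 0.14, Cdkn2b at 0.0201, Cdkn1a at 0.0177, Mdm2 at 0.24, Ccng1 at 0.0508, Rb1 at -0.16, Trp53inp1 at 0.0206, Npm1 at -0.00373, Mybl2 at -0.0303, E2f1 at -0.0737 and Igfbp7 at 0.0873. Phlda3 was at -0.0612 when centred, -0.00650 without the 5% deepest cells and -0.0553 with tertiles after thinning. The Cdkn1b call was lost with a pseudocount of 0.01, no filter, summed UMIs, no library term, no deepest cells, thinning and tertiles inside clusters.

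For pluripotent-like cells by cycling, the 143 called genes became 5 with no filter, 91 with a minimum mean of 0.5, 55 with no library block, 93 without the deepest cells and 66 after thinning. Cdkn2b was at -0.0307 and Mdm2 at -0.17 with summed UMIs, Ccng1 at 0.10 without the deepest cells, and Mdm2 at -0.0929 after thinning.

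For the interaction, the 864 called genes became 413 with no filter, 448 with a minimum mean of 0.5 (0 members), 502 with no library block, 555 without the deepest cells and 1 inside clusters (0 members higher). A pseudocount of 1 called 2 members higher, Cdkn2a among them, and summed UMIs called 1 lower, Phlda3, with Mdm2 at -0.0683. Inside clusters Cdkn2a was at -0.34, Mdm2 at -0.18, Ccng1 at -0.0856, Mybl2 at 0.0901, Cdkn1c at -0.37, Ezh2 at 0.11 and Igfbp7 at -0.47. Centring moved the share of calls that were higher from 29.3% to 40.3%.

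For cells with against without Cdkn2a, no filter left 0 genes and 0 members called, a mean of at least 0.5 left 3 members, and no library block left 1 gene, the member Cdkn1a. At full depth 625 genes were called, with Cdkn1b at -0.00655 and Rb1 at 0.0607, and with all cells together 744. Trp53 was at 0.00555 without the deepest cells. The 5 members were called in the other alternatives that tested them. Leaving out the library block lost the calls of Cdkn2b, Mdm2, Ccng1 and Phlda3 here. In the other comparisons it changed, among members, only the Cdkn1b call for cycling in non-pluripotent cells (limma adjusted p = 0.056).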

Other observations

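Clusters with under 30 cells in a library entered no comparison. In the macrophage-like cluster (4 and 9 cells), which raised 9 of 9 macrophage markers, Cdkn1a was at 9.17 and 11.1 UMIs per 10000 and Cdkn2a had 0 and 1 UMIs in all. In the cluster led by Trf and Saa3, 41 cells of replicate 2 had Cdkn1a at 7.70, Cdkn2a at 3.13 and Phlda3 at 2.61. In the epithelial-like cluster, 83 cells of replicate 1 had Cdkn1a at 1.95, Cdkn2a at 0.365, Cdkn2b at 0.0645 and Trp53 at 1.45.

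The inhibitor Cdkn1c, an imprinted gene outside the member list, was higher in replicate 2 in 11 of 12 clusters, by a median of 0.47 on the log2 scale. It was highest in the Mmp11 cluster, at 1.35 and 3.23, where it was among the leading genes.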
